A study of Mus musculus with 4 samples.

Results

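The replacement histone variant RNAs described here come from 8 genes: H3f3a and H3f3b (histone H3.3), H2afz and H2afv (H2A.Z), H2afx (H2A.X), H2afy (macroH2A1), and the linker histone genes H1f0 and H1fx. They were chosen by name in a table of chimeric RNA-RNA read counts, taking each row with a member on either side of the pair. All 8 were listed, among 13318 RNAs, and they took part in 31 of 56636 pairs. The libraries were made by RIC-seq, in which cells are fixed with formaldehyde, RNA is cut in place, neighbouring RNA ends are ligated, and the joined fragments are sequenced. The cells were mouse spermatogonial stem cells, the testis cells that renew themselves and found the male germ line. There were 2 libraries titled as controls, with WT in the genotype field, and 2 titled as treated, with Differentiation in that field. Neither the inducer, the duration, the age or strain of the mice, nor whether libraries came from separate cultures was given in the sources used here, so the p-values speak only to the spread among these 4 libraries, which could be technical in origin.

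Most histone RNAs are made during DNA replication from clustered, intronless genes, and end in a stem-loop in place of a poly(A) tail. Most replacement variants are made throughout the cell cycle, mostly from polyadenylated RNAs, and some are placed into chromatin outside replication by their own chaperones. In the male germ line, H2A.X is phosphorylated at DNA breaks and over the silenced sex chromosomes of spermatocytes, and H3.3 replaces other H3 as chromatin is rebuilt on the way to sperm.

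Total counts over all pairs were 793129 to 1400011 per library, and every listed pair had at least 1 count in every library, and pairs missing from a library were not analysed here. The pairs of the 8 RNAs held 381 and 412 counts in control cells and 400 and 629 after differentiation, or 0.0315%, 0.0294%, 0.0504% and 0.0544% of all counts. Of the markers of the labelled cells, all 10 germ cell RNAs were listed, Ddx4 and Dazl among them, and 3 rose (Tdrd9, Mov10l1 and Tdrd5). Of 14 RNAs of undifferentiated spermatogonia 8 were listed (Shisa6, Gfra1, Foxo1, Etv5, Ret, Zbtb16, Nanos3 and Sall4), and Id4, Lin28a, Nanos2, Bcl6b, Eomes and Tspan8 were not. Of the 6 tested, 3 fell (Shisa6, Gfra1 and Foxo1; summed 944 to 1108 CPM, then 338 to 351 CPM). Of 6 RNAs of differentiating spermatogonia 4 were listed and 3 tested, and none passed (log2 change of Kit -0.19, Stra8 0.40 and Sohlh2 1.08). Marker RNAs of other cells moved with the groups in some lists and not in others. All 6 tested meiotic prophase RNAs rose (summed contact totals 184 to 196 CPM in controls, 628 to 771 CPM with differentiation; Spo11 and Meiob were not listed). Of 7 tested Sertoli cell RNAs 5 fell (990 to 1122 CPM, then 567 to 612 CPM; Amh and Rhox5 were not listed). Of 8 tested fibroblast or feeder cell RNAs 4 fell (Fbn1, Col3a1, Pdgfrb and Col1a1) and Tnc rose (summed 1741 to 1853 CPM, then 1647 to 1813 CPM; Dcn and Lum were among 5 not listed). None of 4 tested Leydig and peritubular RNAs passed, nor did the 1 tested immune RNA. Over all RNAs tested, 5.44% rose and 6.75% fell. The part of these cells in the results below was not tested.

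The contact total of an RNA is the summed count of all its pairs, given as TMM-scaled CPM (counts scaled to a common library total, here the sum of all contact totals). Of the members, 3 rose with differentiation, namely H3f3b, H2afv and H2afx, none fell, and the other 5 did not pass the test (edgeR's quasi-likelihood F test over 10993 RNAs, Benjamini-Hochberg adjusted p under 0.05). All 8 members passed the low-count filter. Over all RNAs tested, 5.44% were called higher and 6.75% lower. No member was lower at an unadjusted p under 0.05. DESeq2 gave an adjusted p for H3f3b, H2afv, H2afx and H2afy only. It called 2 of them higher, H2afv and H2afx, and none lower. The 2 groups did not overlap, with differentiation higher, for 4 members (H3f3b, H2afv, H2afx and H1fx), against 26.1% of all RNAs. The median log2 change was 0.58 over the 8 members and -0.00071 over all RNAs tested. With column totals in place of TMM scaling the median of all RNAs moved to 0.16, and the counts of all RNAs called moved from 598 higher and 742 lower to 780 and 458. No member changed direction under either other scaling. In bulk RNA, more cells that carry an RNA and more of that RNA per cell cannot be told apart, and a contact total can follow the RNA level as well as its contacts.

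**Figure D1:**
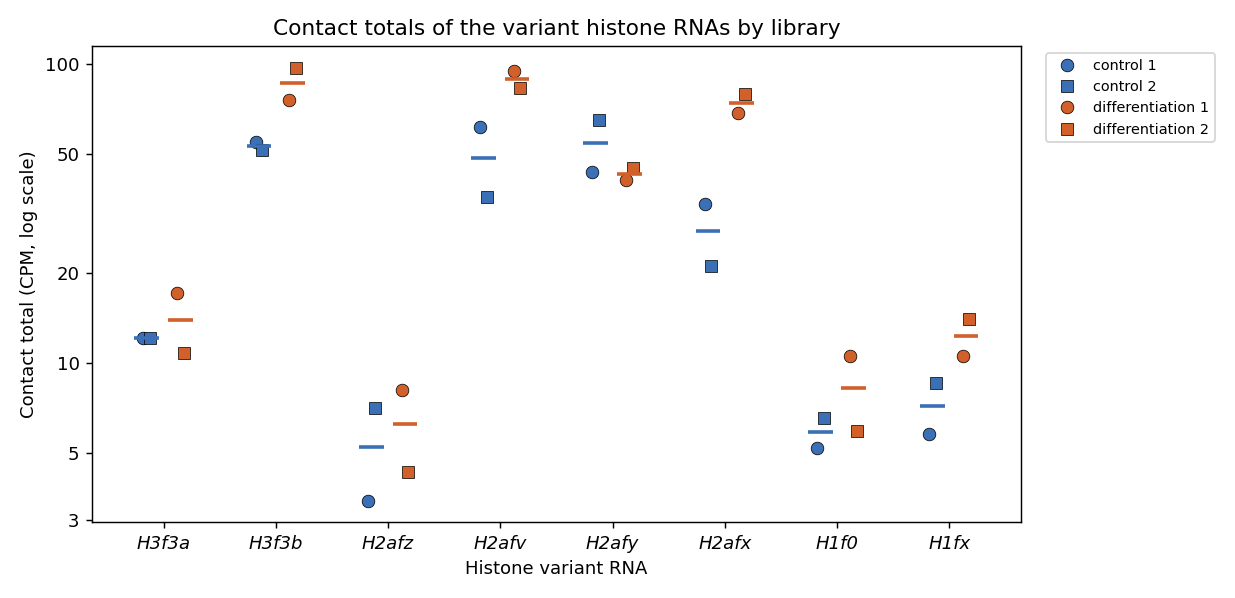
Contact total (CPM, log axis) of each variant histone RNA in the 2 control libraries (blue) and the 2 differentiation libraries (orange), with replicate 1 as circles, replicate 2 as squares and the mean of each group as a line. For H2afx both differentiation libraries, at 68.5 and 79.4 CPM, lie above both controls, at 34.1 and 21.2 CPM.

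Histone H3.3 is encoded by H3f3a and H3f3b. H3f3b RNA had 95 and 102 control counts and 93 and 180 differentiation counts, which scale to 55.0, 51.4, 75.8 and 97.2 CPM. Both differentiation values were above both controls. The contact total rose 1.63-fold, from 53.2 ± 2.54 to 86.5 ± 15.1 CPM (SD, n = 2; log2 change 0.71, SE 0.21, edgeR adjusted p = 0.0490). H3f3a RNA had 21, 24, 21 and 20 counts, which scale to 12.2, 12.1, 17.1 and 10.8 CPM. The groups overlapped, and the log2 change was 0.17 (SE 0.42, adjusted p = 0.841). The log2 ratio of H3f3a to H3f3b was -2.18 and -2.09 in control cells and -2.15 and -3.17 after differentiation, a difference of -0.53 in an exact two-sided permutation test (p = 0.667, where 2 libraries against 2 cannot go below 0.333). The first differentiation library lay between the controls in this ratio and only the second was lower, so the rise of H3f3b was not shown to differ from the change of H3f3a.

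The contacts of the H3.3 RNAs were of unlike kinds. The pair of H3f3b with Gm37486 held 65.3% of all H3f3b counts, at 62, 61, 65 and 119 counts. It rose 2.15-fold, from 48.0 ± 6.01 to 103 ± 15.3 CPM of pairs (SD, n = 2; log2 change 1.11, SE 0.29, edgeR adjusted p = 0.0330 over 31688 pairs). Gm37486 had only 3 listed partners, and this pair held 307 of its 323 counts. Its own contact total rose as well (log2 change 0.86, SE 0.23, adjusted p = 0.0344). Gm37486 had no match in the reference, so whether it overlaps or copies H3f3b was not tested, and the pair is uncertain as a contact between separate RNAs. H3f3b with Gm42418 (10, 20, 14 and 26 counts, log2 change 0.97, adjusted p = 0.275), with Slc9a9 (9, 6, 5 and 14 counts, 0.84) and with Gm26917 (13, 12, 7 and 17 counts, 0.46) did not pass. Without the Gm37486 pair the H3f3b total had a log2 change of 0.50 (adjusted p = 0.352). Its call was also lost in 9 other alternatives of 18, among them without control 1 (0.228), control 2 (0.362) or differentiation 2 (0.211) and with DESeq2 (0.0834), and the adjusted p ranged from 0.00245 to 0.362. The pair lost its call in 6 of 14, among them the same 3 left-out libraries (0.0985, 0.283 and 0.111) and column totals (0.0617).

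H3f3a had 5 partners. Its pair with Gm6421, a pseudogene on chromosome 13 at 117347745 to 117358718 (GRCm38.p6), had 5, 9, 5 and 7 counts (log2 change 0.35, adjusted p = 0.836). Its pair with H3f3c, a gene on chromosome 2 at 119665116 to 119666152, had 5, 4, 6 and 3 counts, too few for the test. H3f3a was the only partner listed for either of them. Whether either shares sequence with H3f3a was not tested, and reads of similar copies can be assigned to the wrong one, so these 2 pairs, with 26 and 18 counts, are uncertain as contacts. The other H3f3a pairs were those with Gm42418 (5, 3, 4 and 8 counts, log2 change 1.10, adjusted p = 0.412), Slc9a9 (5, 4, 3 and 1) and the nuclear speckle RNA Malat1 (1, 4, 3 and 1).

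The 250 bases before the start of the transcript that the reference table uses are shown for the H3.3 genes, because 1 of them rose and the other did not pass. They are from RefSeq sequences of build GRCm38.p6, 5′ to 3′ on the minus strand, at chr1:180813606-180813855 for H3f3a and chr11:116024505-116024754 for H3f3b, whose window lies inside the longest span of the gene. Capitals mark matches, searched on both strands, to the CCAAT box (letters CCAAT) and the TATA box (letters TATAAA). They also mark matches to the octamer promoter motif (letters ATGCAAAT).
H3f3a: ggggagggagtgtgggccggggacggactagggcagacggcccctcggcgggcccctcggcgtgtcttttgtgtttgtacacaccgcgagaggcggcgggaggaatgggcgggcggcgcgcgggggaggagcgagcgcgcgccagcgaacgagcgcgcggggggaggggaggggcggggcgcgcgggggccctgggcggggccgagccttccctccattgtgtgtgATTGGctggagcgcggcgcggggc
H3f3b: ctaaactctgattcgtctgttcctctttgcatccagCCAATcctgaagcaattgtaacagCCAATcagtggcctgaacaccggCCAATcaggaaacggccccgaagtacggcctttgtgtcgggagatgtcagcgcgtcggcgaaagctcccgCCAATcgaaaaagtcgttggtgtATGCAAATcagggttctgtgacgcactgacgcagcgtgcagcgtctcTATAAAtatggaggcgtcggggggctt
The H3f3b window held 4 CCAAT matches, 1 TATAAA match that begins 27 bases before the start and 1 octamer match at 74 bases. The H3f3a window held 1 CCAAT match, at 24 bases. Of 32851 windows of this length in the reference table, 33.8% held a CCAAT match and 0.840% held 4 or more, 12.4% held TATAAA and 1.60% the octamer. No match overlapped another in these windows. A match describes letters only, and neither promoter activity nor factor binding was measured in these libraries.

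Histone H2A.Z is encoded by H2afz and H2afv (H2az1 and H2az2 in RefSeq). H2afv was the only member listed in contact with itself, and this pair held 94.4% of its counts. It had 103 and 68 control counts and 109 and 142 differentiation counts, and rose 2.15-fold, from 67.8 ± 26.9 to 145 ± 13.4 CPM of pairs (SD, n = 2; log2 change 1.10, SE 0.29, edgeR adjusted p = 0.0356). Both differentiation libraries were above both controls, although the controls differed widely. Of all within-RNA pairs tested 12.3% rose, with a median of 0.44. The H2afv contact total went from 61.3 and 35.8 CPM to 94.6 and 83.1 CPM (log2 change 0.88, SE 0.26, adjusted p = 0.0466). The few contacts with other RNAs were also higher as a sum. They numbered 3 and 3 in control cells and 7 and 12 after differentiation (over between-RNA pairs only, log2 change 2.05, SE 0.61, edgeR adjusted p = 0.0359). Their partners were Gm42418 (2, 2, 4 and 6 counts, log2 change 1.81, adjusted p = 0.217) and Gm26917 (1, 1, 3 and 6, not tested). This sum met the low-count filter in the differentiation libraries alone, so its positive change was partly set by the filter and is no separate support for a rise. The within-RNA change minus the between-RNA change of H2afv was -1.46 (SE 0.64, adjusted p = 0.409), in a test of this difference that passed for 0.0526% of 3803 RNAs. Over 18 alternatives the H2afv total lost its call in 4, without control 1 (0.0644), without control 2 (0.431), without the pairs of Gm42418 and Gm26917 (0.101) and without those of Slc9a9 as well (0.147). The within-RNA pair lost its call in 4 of 14, among them without control 2 (0.418) and under column totals (0.0623).

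H2afz RNA had 6, 14, 10 and 8 counts, which scale to 3.47, 7.05, 8.15 and 4.32 CPM. The groups overlapped (log2 change 0.18, SE 0.61, adjusted p = 0.895). Its listed partners were Gm42418 (2, 12, 8 and 3 counts, log2 change 0.30, adjusted p = 0.892) and Gm26917 (4, 2, 2 and 5, not tested). The log2 ratio of H2afz to H2afv was -4.14 and -2.34 in control cells and -3.54 and -4.27 after differentiation, a difference of -0.66 (exact two-sided permutation p = 0.667). The controls span nearly the whole range of this ratio. The windows before the starts of both genes are shown as for H3.3, at chr3:137864237-137864486 on the plus strand for H2afz and chr11:6444444-6444693 on the minus strand for H2afv. The H2afv window lies partly inside the longest span of its gene, which ends at 6444511.
H2afz: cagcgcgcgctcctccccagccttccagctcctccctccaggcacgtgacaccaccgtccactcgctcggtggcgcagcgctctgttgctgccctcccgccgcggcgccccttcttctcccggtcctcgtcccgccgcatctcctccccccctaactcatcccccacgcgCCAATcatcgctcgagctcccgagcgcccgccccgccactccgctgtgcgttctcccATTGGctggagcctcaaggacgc
H2afv: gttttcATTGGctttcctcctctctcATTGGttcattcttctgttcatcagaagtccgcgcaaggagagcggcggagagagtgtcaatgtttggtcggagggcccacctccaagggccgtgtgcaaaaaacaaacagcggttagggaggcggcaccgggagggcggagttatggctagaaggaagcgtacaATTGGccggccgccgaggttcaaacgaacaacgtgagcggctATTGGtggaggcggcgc
H2afv, which rose, held 4 CCAAT matches, at 244, 224, 59 and 17 bases before the start, and H2afz held 2, at 80 and 23 bases. Neither window held TATAAA or the octamer. The H2afv matches at 59 and 17 bases lie inside the longest span of that gene. The windows of H2afy, H1f0 and H1fx held none of the 3 motifs, and H2afx had no entry.

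H2afx encodes H2A.X, the variant whose phosphorylated form marks DNA breaks. Its RNA had the largest log2 change of the 8 contact totals over all pairs. Over between-RNA pairs only, H2afv was higher, at 2.05 against 1.61, but the H2afv value was partly set by the low-count filter. H2afx RNA had 59 and 42 control counts and 84 and 147 differentiation counts, which scale to 34.1, 21.2, 68.5 and 79.4 CPM. The lowest differentiation value was above the highest control. The contact total rose 2.67-fold, from 27.6 ± 9.18 to 73.9 ± 7.68 CPM (SD, n = 2; log2 change 1.43, SE 0.27, edgeR adjusted p = 0.00521). All 6 listed H2afx pairs could be tested, and all 6 had a positive log2 change. Those with Gm23935 and Gm12153 met the low-count filter in the differentiation libraries alone. Their positive change was partly set by the filter, so this tally is no separate support for a rise. The pairs with Gm42418 (10, 9, 28 and 28 counts, log2 change 2.14, SE 0.49, adjusted p = 0.0159) and with Slc9a9 (13, 6, 13 and 46 counts, 2.09, SE 0.56, adjusted p = 0.0371) rose. The pair with Gm26917, the largest, did not pass (25, 22, 26 and 51 counts, 1.23, adjusted p = 0.0816), nor did those with Gm23935 (1, 3, 9 and 6 counts, 2.43, adjusted p = 0.0870), the lncRNA Gm12153 (4, 1, 6 and 7 counts, 1.88) and the kinase RNA Cdk8 (6, 1, 2 and 9 counts, 1.13).

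None of the 6 partners of H2afx was called higher in its own contact total. That of Gm42418 had a log2 change of -0.26 (adjusted p = 0.255) and that of Slc9a9 -0.29 (adjusted p = 0.246), and Gm26917 fell (-0.50, SE 0.13, adjusted p = 0.0296). Gm23935 (0.29, adjusted p = 0.212) and Cdk8 (0.26, adjusted p = 0.290) had positive changes, with both differentiation libraries above both controls, and Gm12153 had -0.18 (adjusted p = 0.518). Over all tested pairs of Gm42418 with another RNA the median was 0.045 and 0.974% rose. For Slc9a9 the median was 0.034 and 0.526% rose, and for Gm26917 it was -0.23 and 0.34% rose. The H2afx total lost its call in 2 of 18 alternatives, without control 2 (1.12, adjusted p = 0.1498) and without the pairs of Gm42418, Gm26917 and Slc9a9 (1.43, adjusted p = 0.168), and the adjusted p ranged from 8.18e-06 to 0.168. The Slc9a9 pair rested on the second differentiation library, with a log2 change of 1.29 and an adjusted p of 0.346 without it, and also lost its call in 4 other alternatives, with an adjusted p of 0.251 without control 2. The Gm42418 pair lost its call without control 2 (0.124).

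H2afy encodes macroH2A1, an H2A variant with a large globular domain, enriched on the inactive X chromosome. It was the only member with a negative log2 change in contact total (-0.34, SE 0.26, adjusted p = 0.437). Its counts were 75, 129, 50 and 83, which scale to 43.4, 65.0, 40.8 and 44.8 CPM, and the groups overlapped. None of its 4 tested pairs passed. The pair with Gm42418 had 26, 62, 8 and 32 counts (-0.61, adjusted p = 0.525), that with Gm26917 had 22, 33, 27 and 27 (0.58, adjusted p = 0.478), and that with Slc9a9 had 15, 25, 8 and 16 (-0.18, adjusted p = 0.895). The pair with the paraspeckle RNA Neat1 had 8, 5, 4 and 3 counts and a log2 change of -0.31 (SE 0.74, adjusted p = 0.873), where the median of all 801 tested Neat1 pairs was -1.99. The difference between this pair and the others of Neat1 was not tested. H2afy is the longest of the 8 genes, at 62.0 kb, and the only one whose span overlaps another gene in the reference (Gm31485). Its reads may be assigned to that neighbour, and how overlaps were handled was not given. Genes without a match in the reference, such as Gm37486, could not be checked for overlap.

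The linker histone RNAs H1f0 and H1fx encode H1.0, a variant of quiescent and differentiated cells, and H1.10. H1fx RNA had 10, 17, 13 and 26 counts, or 5.79, 8.56, 10.6 and 14.04 CPM. The groups did not overlap, but the rise from 7.17 ± 1.96 to 12.3 ± 2.43 CPM did not pass (log2 change 0.78, SE 0.47, adjusted p = 0.317). Its pair with Gm42418 rose, on 2 and 2 control counts and 6 and 15 differentiation counts (log2 change 2.83, SE 0.74, adjusted p = 0.0338). That pair passed the low-count filter through the differentiation libraries alone, the group in which it is high. The pair of H1fx with Gm26917 had 6, 13, 4 and 9 counts (0.0098, adjusted p = 0.996, with its sign turned under column totals to -0.13). That with Slc9a9 had 2, 2, 3 and 2 counts, too few for the test. The rise of the Gm42418 pair was lost in 5 of 11 alternatives, up to an adjusted p of 0.323 without differentiation 2, and without either control (0.105 and 0.184). H1f0 RNA had 9, 13, 13 and 11 counts, or 5.21, 6.55, 10.6 and 5.94 CPM, and the groups overlapped (0.44, SE 0.54, adjusted p = 0.654). Its pairs were with Gm42418 (4, 11, 7 and 5 counts) and Slc9a9 (5, 2, 6 and 6 counts, log2 change 1.31, adjusted p = 0.340).

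Over all 31 pairs of the 8 RNAs, 23 passed the low-count filter. Of these 5 rose and none fell, against 2.85% higher and 2.4% lower of all pairs. No pair of a member was lower at an unadjusted p under 0.05. None was called lower with DESeq2, which gave many of the 23 no adjusted p. Of the 23, 20 had a positive log2 change, and 14 had groups that did not overlap with differentiation higher, against 24% of all tested pairs. The low-count filter asked for enough counts in any 2 libraries. Some pairs met it in the differentiation libraries alone, among them H1fx with Gm42418, H2afv with Gm42418, and H2afx with Gm23935 and with Gm12153. For such pairs a positive change was partly set by the filter, so these tallies are no separate support for a rise. The 3 negative changes were all pairs of H2afy. These pairs share partners and libraries and are not independent of each other.

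**Figure D2:**
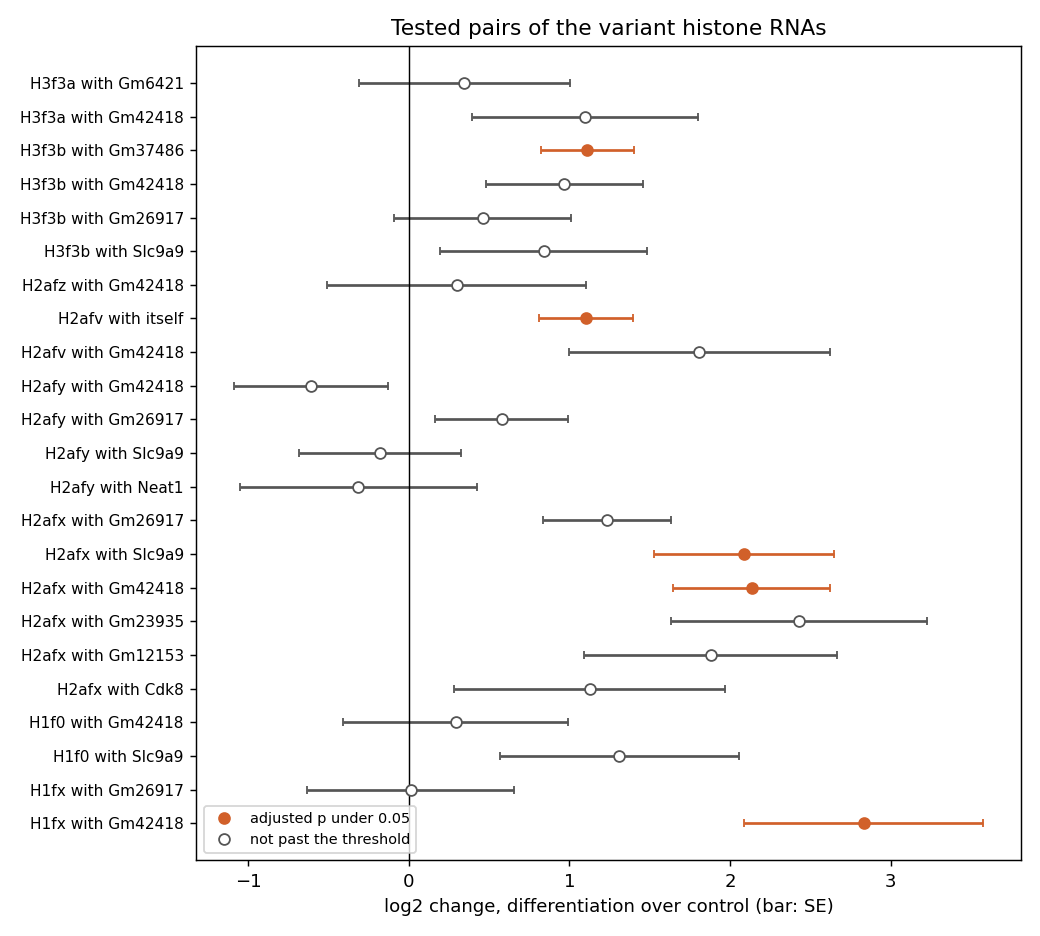
Log2 change of each tested pair of a variant histone RNA (differentiation over control, with the SE of the fit), with filled orange points for adjusted p under 0.05. The pair of H1fx with Gm42418 lies farthest to the right at 2.83, and the pairs below 0 are those of H2afy with Gm42418, Slc9a9 and Neat1.

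The partners themselves were few. The 8 RNAs had 12 distinct partners other than themselves, of which 9 matched the reference. All 8 were listed with Gm42418, which is a synonym of Rn18s-rs5, a pseudogene related to ribosomal RNA on chromosome 17 at 39846354 to 39848202. Gm26917 was listed with 6 of them (not H3f3a and H1f0) and the ion exchanger RNA Slc9a9 with 6 (not H2afz and H2afv). These are also the commonest partners elsewhere. Among 6929 other RNAs with 2 to 6 listed partners, 77.6% were listed with Gm42418, 68.1% with Gm26917 and 71.0% with Slc9a9, so that sharing them does not set these histone RNAs apart. Shroom3, which encodes an actin-binding protein, was listed with H3f3b (1, 3, 2 and 4 counts) and H2afy (4, 4, 3 and 5), as with 16.4% of those RNAs. No pair joined 2 different members, and none joined a member to a clustered histone RNA. None of the 9 matched partners lay within 100 kb of the gene it was paired with, and the other 3 (Gm23935, Gm26917 and Gm37486) could not be checked for distance. Of the 9, only Slc9a9 shared a chromosome with its member, H2afx on chromosome 9.

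Gm42418 and Gm26917 together held 34.6% (95% Wilson interval 30.0 to 39.6) and 49.5% (44.7 to 54.3) of the counts of the 8 RNAs in the controls, and 37.0% (32.4 to 41.8) and 37.8% (34.1 to 41.7) in the differentiation libraries. The intervals cover counting error only, and whether reads were reduced to single molecules was not given. The controls lay on both sides of the differentiation libraries (difference -4.66 percentage points, exact two-sided permutation p = 1). Over the whole table these RNAs held 19.4% to 24.5%. H3f3a, H3f3b and H2afv stood outside this pattern. The largest partner of H3f3a was Gm6421, with 30.2% of its counts, and H3f3a was not listed with Gm26917. The pair with Gm37486 held 65.3%, 59.8%, 69.9% and 66.1% of the H3f3b counts, and the within-RNA pair 97.2%, 95.8%, 94.0% and 92.2% of those of H2afv. Both differentiation values of H2afv were below both controls, but their Wilson intervals overlapped. These were 92.0 to 99.0 and 88.3 to 98.6 in the controls, and 88.1 to 97.0 and 86.9 to 95.5 with differentiation.

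**Figure D3:**
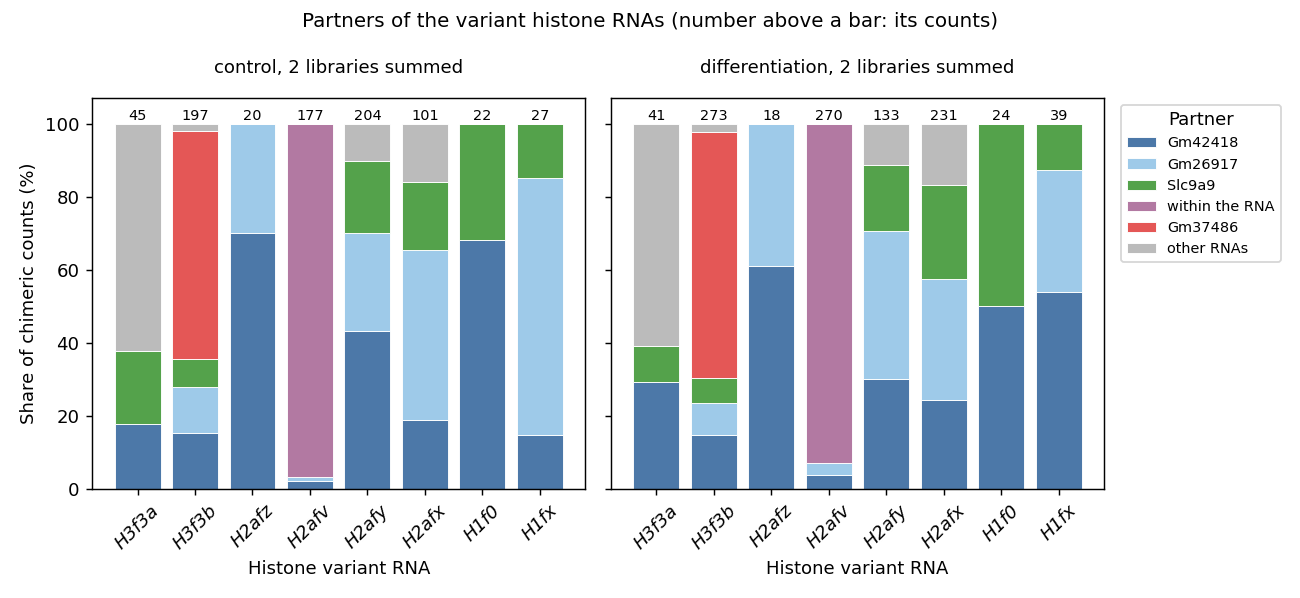
Share of the chimeric counts (%) of each variant histone RNA by partner, with the 2 libraries of a group summed and the number of counts above each bar. H2afv is nearly all within-RNA contact, Gm37486 takes most of H3f3b, and the class of other RNAs takes most of H3f3a. The remaining members are shared among Gm42418, Gm26917, Slc9a9 and a few more RNAs.

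Levels were set side by side per kb of gene span, the only length at hand. Whether intronic reads were counted was not given in the sources used here, which affects the long genes most. In the controls H2afx stood highest at 20.3 ± 6.73 CPM per kb, followed by H3f3b at 13.0 ± 0.622, H1fx at 6.76 ± 1.85, H2afv at 2.81 ± 1.05, H1f0 at 2.56 ± 0.414, H2afz at 2.16 ± 1.04, H3f3a at 1.10 ± 0.00393 and H2afy at 0.874 ± 0.246 (SD, n = 2). The values of H2afv and H1f0, and of H1f0 and H2afz, overlapped. With differentiation the order was the same, at 54.2 ± 5.64 for H2afx and 21.2 ± 3.70 for H3f3b down to 0.690 ± 0.0460 for H2afy, and only H1f0 and H2afz overlapped.

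Genes that load or chaperone these variants were taken as a list. Of 35 listed chaperone and loader genes 34 were in the table and 31 were tested. Of these 4 rose and none fell (none lower at an unadjusted p under 0.05 or with DESeq2), with a median of 0.15, beside 5.44% higher and a median of -0.00071 over all RNAs tested. Among them were Chaf1a, a subunit of the replication-coupled chaperone CAF-1 (0.97, SE 0.18, adjusted p = 0.00562), the histone chaperone gene Nasp (1.51, adjusted p = 0.0282) and the nuclear lamina gene Lmnb1 (0.71, adjusted p = 0.0134), which is not a chaperone. The RNAs of the H3.3 loaders Hira (-0.018, adjusted p = 0.964), Daxx (-0.47, 0.409) and Atrx (-0.32, 0.252) did not pass. These calls numbered 0 without control 1, 0 without control 2, 2 without differentiation 2, 2 without the pairs of Gm42418 and Gm26917, and 7 without differentiation 1.

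For the lists that follow, the shares over all RNAs tested were 5.44% higher and 6.75% lower. Among RNAs of the proteins that act at phosphorylated H2A.X, 3 of 12 tested rose and none fell (none lower at an unadjusted p under 0.05 or with DESeq2), with a median of 0.28. They were the checkpoint kinase RNA Atr, from 115 ± 1.27 to 520 ± 188 CPM (2.17, SE 0.23, edgeR adjusted p = 1.59e-04), Mdc1, whose protein binds phosphorylated H2A.X (1.34, SE 0.21, adjusted p = 0.00198), and Topbp1 (0.66, SE 0.19, adjusted p = 0.0449). Without control 2 there was 1 call. Of 17 other variant histone RNAs 9 were listed and 7 tested, and 3 rose. They were the testis-enriched Hist1h2ba (2.73, SE 0.21, adjusted p = 3.27e-05) and Hist1h2aa (2.04, SE 0.54, adjusted p = 0.0305), and Hist2h3c1, which encodes a replication-linked H3 (1.26, adjusted p = 0.0257). All 3 are also counted among the clustered histone RNAs, and 1 call was left without control 1, without control 2, with DESeq2 or without the pairs of Gm42418 and Gm26917. The macroH2A2 RNA H2afy2 (-0.54, adjusted p = 0.495) and Cenpa, the centromeric H3 (0.39, adjusted p = 0.782), did not pass. Of 54 tested clustered histone RNAs 29 rose and none fell, with a median of 1.39, beside 3 of 8 and 0.58 for the replacement variants. The clustered calls numbered 10 without control 1, 5 without control 2, 17 with DESeq2 and 15 without the pairs of Gm42418 and Gm26917. The difference between these 2 kinds of histone RNA was not tested, and reads of the closely similar clustered genes may be assigned to the wrong copy.

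For each member the RNA with the nearest pattern was found as the smallest Euclidean distance between centred log2 CPM values in the 4 libraries, among RNAs within 1 log2 unit in average level. For H2afx it was the oxysterol-binding protein RNA Osbp2 (distance 0.091, median of 2982 candidates 1.66), for H3f3b Gm11560 (0.047, median 0.891), for H2afv Timm10b (0.035, median 1.23) and for H2afy Gpatch2 (0.065, median 0.757). For the members with fewest counts it was Traf3ip2 for H3f3a (0.023), Mrpl10 for H1f0 (0.037), Gm44419 for H1fx (0.024) and Rab2b for H2afz, whose scaled values were in the same proportions. With 4 libraries and 2570 to 4648 candidates, a small distance says little by itself.

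**Figure D4:**
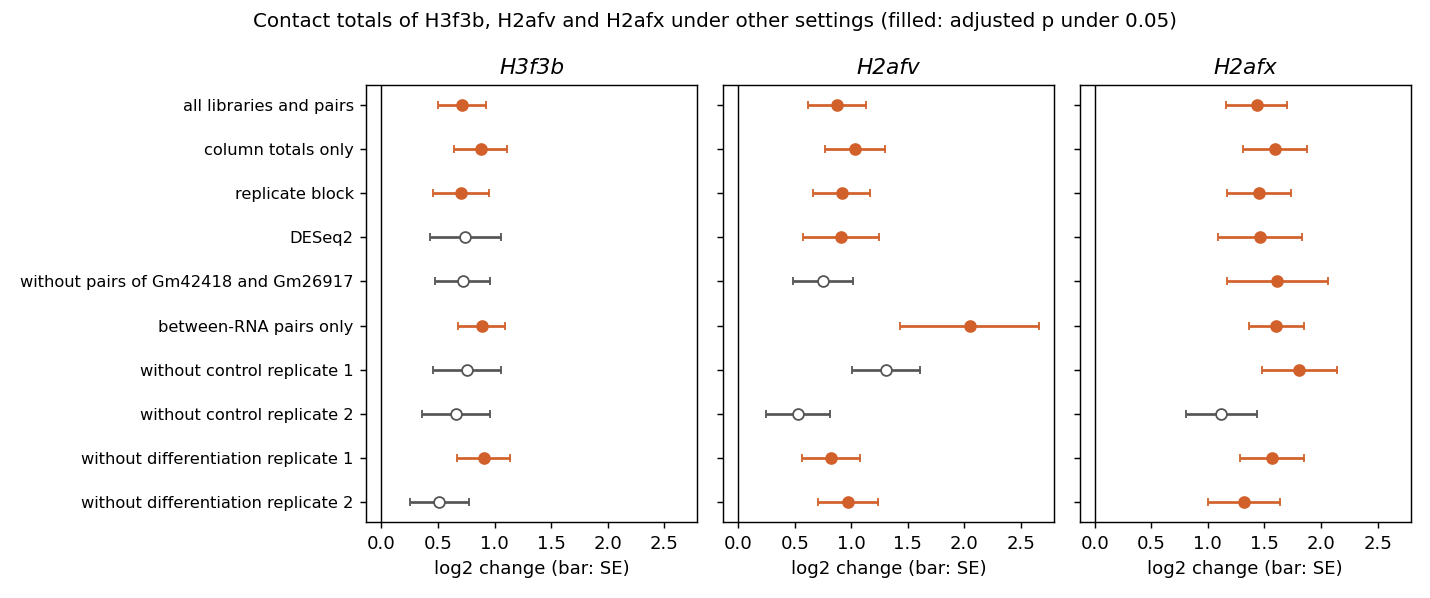
Log2 change in contact total (differentiation over control, with the SE) of H3f3b, H2afv and H2afx under all libraries and pairs and under 9 alternatives, filled where adjusted p was under 0.05. The change stayed above 0 in each, and without control 2 none of the 3 passed, at 0.66, 0.53 and 1.12.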

How the data were processed

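RIC-seq counts of chimeric reads were deposited by the authors as a single table of raw, unnormalized counts, with a row for each RNA pair (per the file headers). STAR and build GRCm38 were named in the submitters' processing notes. How chimeric reads, duplicates, strand and gene overlaps were handled is not given in the sources used here. Groups came from the sample titles.

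Pairs, and contact totals per RNA (a within-RNA pair counted once), were tested on all features with edgeR 4.0.16 in R 4.3.3: filterByExpr (minimum count 5, minimum total 10), TMM, quasi-likelihood F test, two-sided, Benjamini-Hochberg, threshold 0.05. Standard errors were taken from the F statistic. The within against between test had the library as a block. The main edgeR fits of contact totals, of pairs and of within against between were tested on simulated counts. Alternatives were RLE scaling, column totals, no filter, the default filter (10 and 15), replicate block, DESeq2 1.42.0, an adjusted p under 0.1, subsets of pairs, and each library left out on the same features. The last 3 subsets (without the Gm37486 pair, the H3f3a copies, or Slc9a9 as well) were chosen after seeing the data. Members and lists were chosen with earlier results of these data known. Named genes were all members, their pairs of largest count or past the threshold, up to 4 called RNAs per list (or up to 2 of largest level where none was called), nearest patterns, and partners within 100 kb. H2afy2, Cenpa, Hira, Daxx and Atrx were named after their values were seen. A reference table of GRCm38.p6 gave locations for all 8 members. Depth was 793129 to 1400011 counts per library. Of the called chaperone list RNAs, 1 is not reported here.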

Additional observations from a re-analysis of the deposited data

How the results depend on the processing

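The directions of H3f3b, H2afv, H2afx, H1f0 and H1fx (higher) and of H2afy (lower) in contact total held in every alternative that gave a value. Members called higher, 3 in all, numbered 1 without the pairs of Gm42418 and Gm26917, 0 without those of Slc9a9 as well, and 0 to 3 with 1 library left out (1 without control 1, 0 without control 2). Member pairs called higher, 5 in all, numbered 3 under column totals, 3 with DESeq2 (which gave the H1fx-Gm42418 pair no adjusted p), 0 of 11 without the pairs of Gm42418 and Gm26917 (which takes out 2 of the 5, the other 3 keeping log2 changes of 1.01, 1.01 and 1.98), 1 without the pairs of Neat1 and Malat1, and 0 to 6 with 1 library left out (3 without control 1, 0 without control 2, 2 without differentiation 2). The total of H3f3a turned to -0.091 without the pairs of Gm42418 and Gm26917 and ranged from -0.13 to 0.49 with 1 library left out, and that of H2afz from -0.27 to 0.79. The Gm26917-H1fx pair turned to -0.13 under column totals, -0.048 without a filter, -0.0049 with the replicate block, -0.048 without Neat1 and Malat1 and -0.0043 with 1 of each set of identical pairs, and ranged from -0.35 to 0.53 with 1 library left out. So did the pairs Gm42418-H2afz (-0.87 to 1.87), H2afy-Neat1 (-0.80 to 0.17), H1f0-Gm42418 (-0.26 to 1.03) and H2afy-Slc9a9 (-0.43 to 0.10). With 1 library left out the H2afz to H2afv ratio difference ranged from -1.56 to 0.24 and the share of Gm42418 and Gm26917 from -12.1 to 2.77 percentage points. With the replicate block, 3 members and 6 pairs were called higher. Deviations of same-numbered libraries correlated at 0.14 over contact totals and 0.017 over pairs, and the numbers were not taken to pair the samples. Within-RNA pairs could give no ratio for either gene pair, nor could the H2afz ratio be had without Gm42418 and Gm26917. Of 31 pairs, 8 could not be tested and 13 had under 20 counts.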
